A study of Yarrowia lipolytica with 35 samples.

Results

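Yarrowia lipolytica DSM-21175 was compared between growth and stationary phase on glucose, using 6 of the 35 RNA-seq libraries of the series. In the growth group (3 libraries), cells grew in bioreactors at pH 5.5 with glucose as the sole carbon source and were harvested at 12 h. In the stationary group (3 libraries), cells of the same strain, at the same pH and on the same carbon source, were harvested at 32 h, when nitrogen limited the culture. The members were chosen by strain, carbon source, pH and hour as the labels give them, and not by any measured value. The other libraries cover a second strain, DSM-3286, glycerol as carbon source, and 32 h cultures at pH 3.5. The labels give no genetic change for either strain and do not say whether replicates came from separate bioreactor runs. The p-values thus measure a spread between samples that may be partly technical. This spread was estimated over all 35 libraries of the series, not over the 6 compared alone. Phase and hour change together here and cannot be told apart.

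Y. lipolytica is a strictly aerobic yeast that stores lipid and secretes citrate when nitrogen runs out while carbon is left, and that makes erythritol and mannitol under some conditions. Hexose enters through transporters of the YHT family, passes through glycolysis to pyruvate, and reaches mitochondrial citrate, which can be exported or cleaved to acetyl-CoA for fatty acid synthesis. The species is also known for growth on alkanes and fats: cytochromes P450 of the ALK family hydroxylate alkanes and fatty acids, acyl-CoA oxidases (POX) start peroxisomal beta-oxidation, and secreted lipases (LIP) release fatty acids.

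Levels are CPM, counts divided by a library total (in M) that was adjusted for composition by TMM. They are shares of a library, so a lower level from fewer cells of a state and a lower level from less RNA per cell cannot be told apart. Changes are log2 fold changes of 32 h over 12 h with their standard error (SE), from the quasi-likelihood test of edgeR, and p-values were adjusted by the Benjamini-Hochberg method over all 6537 genes tested. An adjusted p under 0.05 is called a change, and "rose" and "fell" are used for such genes alone. Locus tags of the pathway genes were assigned from published names, and most could not be checked against the files.

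The 6 libraries held 10.49 to 13.52 megareads (M) counted in genes in growth phase and 12.48 to 14.94 M at 32 h. Replicate 3 stood apart in both groups. The correlation of log2 CPM was 0.994 between growth replicates 1 and 2, against 0.974 for both of their pairs with replicate 3. At 32 h it was 0.995 between replicates 1 and 2, and 0.969 and 0.971 with replicate 3. A gap of 2-fold or more to the nearer replicate was found for 350 genes in growth replicate 3 and 426 genes in stationary replicate 3, against 32 to 54 genes in the other libraries. A change that moved by over 1.5 times without 1 library is given with and without it.

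At 32 h, 2423 genes were higher (37.1% of those tested) and 2305 were lower (35.3%) than at 12 h, so that 72.3% changed. The groups did not overlap for 71.3% of genes, with all stationary libraries above all growth libraries for 36.3% and below them for 34.9%. Changes of at least 4-fold were called for 504 genes that rose and 338 that fell, and changes of at least 64-fold for 56 and 14. The median log2 fold change over all genes was 0.029. Without both replicates 3, 2214 genes rose and 2293 fell. In a fit of the 6 libraries alone, 2137 genes rose and 2090 fell. Of the 83 genes in 14 pathway lists, 20 rose and 40 fell, with a median of -0.40.

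**Figure D1:**
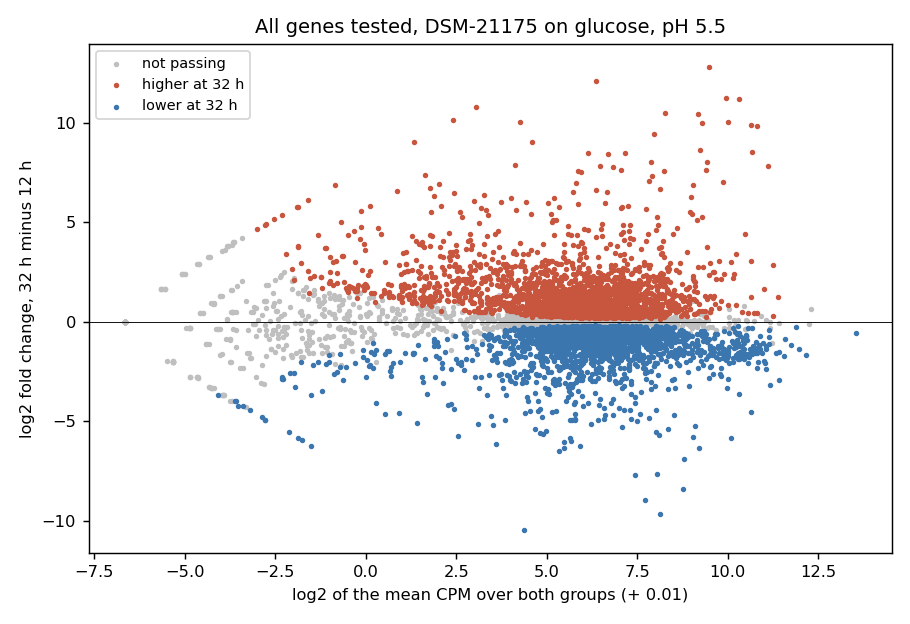
Log2 fold change of 32 h over 12 h (vertical axis) against the log2 of the mean CPM over both groups (horizontal axis) for the 6537 genes tested. Red points (2423 genes) were higher and blue points (2305 genes) lower at an adjusted p under 0.05, and grey points did not pass. Increases reach larger sizes than decreases, with 56 against 14 genes changed at least 64-fold.

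The hexose transporters had the lowest median change among the pathway lists. All 3 hexose transporters of the list fell, beside 35.3% of all genes tested, with a median log2 fold change of -5.21. YHT1, a main hexose transporter of the species, stood at 1942, 2201 and 2324 CPM in growth replicates 1 to 3 and at 13.2, 15.3 and 84.0 CPM at 32 h. All stationary libraries lay far below all growth libraries, and stationary replicate 3 was the highest of them. The log2 fold change of YHT1 was -5.84 ± 0.60 (SE, adjusted p = 3.49e-09), and -7.28 without stationary replicate 3. YHT4 went from 1006, 997 and 1222 CPM to 21.6, 23.6 and 41.6 CPM, a change of -5.21 ± 0.23 with no overlap between groups (edgeR adjusted p = 2.05e-17). On the per-length scale (FPKM), the mean level of YHT1 was 1392 in growth phase and 24.2 at 32 h, and that of YHT4 was 594 and 16. YHT2 was near the detection limit in both groups, with 6 to 10 reads per library in growth phase and 1 to 8 at 32 h. Its change of -1.67 (edgeR adjusted p = 0.035) was lost when growth replicate 1, growth replicate 3, stationary replicate 1 or stationary replicate 2 was left out (adjusted p = 0.0933, 0.0918, 0.116 and 0.113), and in a fit of the 6 libraries with the replicate number as a block (adjusted p = 0.0663). Without stationary replicate 3 it was -2.89.

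Of the 13 genes for glycolysis and gluconeogenesis, 12 fell and none rose, beside 35.3% and 37.1% of all genes tested. Their median log2 fold change was -0.86 beside 0.029 over all genes. Without both replicates 3, 12 fell as well. ENO1, for enolase, had 1933, 2193 and 1301 CPM in growth phase and 464, 502 and 401 CPM at 32 h, a change of -1.99 ± 0.15 (edgeR adjusted p = 6.63e-13). TDH1, for glyceraldehyde-3-phosphate dehydrogenase, went from 7567, 7657 and 5822 CPM to 2037, 2330 and 2220 CPM, or -1.68 ± 0.09 (edgeR adjusted p = 6.87e-16). The stationary libraries lay below the growth libraries for both genes, and growth replicate 3 was the lowest of its group. PYK1, for pyruvate kinase, fell by 1.66 ± 0.13 and PGI1, for glucose-6-phosphate isomerase, fell by 1.49 ± 0.14 on the log2 scale. The smallest falls of the list were those of GLK1 (glucokinase, -0.45 ± 0.10), FBA1 (aldolase, -0.52 ± 0.07), PGK1 (phosphoglycerate kinase, -0.59 ± 0.12) and PFK1 (phosphofructokinase, -0.59 ± 0.13), whose groups overlapped. In the block fit of the 6 libraries PFK1 did not pass (adjusted p = 0.0613). PCK1, for the gluconeogenic phosphoenolpyruvate carboxykinase, did not pass: it had 115, 110 and 92.0 CPM in growth phase and 114, 115 and 192 CPM at 32 h (0.40 ± 0.20, edgeR adjusted p = 0.074). Its level at 32 h was set apart in stationary replicate 3 alone. Without stationary replicate 1 or stationary replicate 2 it passed (adjusted p = 0.0478 and 0.0457), and without both replicates 3 the change was -0.02.

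In the pentose phosphate pathway, which supplies NADPH and pentoses, TAL1 (transaldolase) fell by 0.99 ± 0.09 and GND1 (6-phosphogluconate dehydrogenase) by 0.81 ± 0.12 on the log2 scale. The other two genes of the list did not pass: ZWF1, for glucose-6-phosphate dehydrogenase, had -0.19 ± 0.13, and TKL1, for transketolase, had 0.27 ± 0.14. Left-out libraries moved both past the threshold: ZWF1 fell by 0.47 without stationary replicate 3 (edgeR adjusted p = 0.00113), and TKL1 rose by 0.38 without growth replicate 2 (adjusted p = 0.0347).

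Of 5 genes for glycerol and dihydroxyacetone metabolism, 4 fell, beside 35.3% of all genes tested. GUT1, for glycerol kinase, had 988, 966 and 1181 CPM in growth phase and 194, 215 and 300 CPM at 32 h (-2.15 ± 0.16, edgeR adjusted p = 8.33e-13). GUT2, for mitochondrial glycerol-3-phosphate dehydrogenase, went from 711, 743 and 680 CPM to 232, 239 and 248 CPM (-1.57 ± 0.16, edgeR adjusted p = 1.25e-09). Neither gene had overlapping groups. DAK1, a dihydroxyacetone kinase gene, fell by 1.09 ± 0.15 on the log2 scale. DAK2, at 17.7, 18.2 and 38.3 CPM and then 3.83, 7.38 and 12.6 CPM, changed by -1.63 ± 0.53 (edgeR adjusted p = 0.008), and by -1.17 without growth replicate 3, which did not pass (adjusted p = 0.0667). GPD1, for the cytosolic glycerol-3-phosphate dehydrogenase, did not pass (0.20 ± 0.10), but rose by 0.28 without growth replicate 3 (adjusted p = 0.0217).

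The 3 erythritol utilization genes on the list were low in growth phase and rose, beside 37.1% of all genes tested. EYK1, for erythrulose kinase, had 2.84, 5.02 and 6.69 CPM at 12 h and 18.9, 26.1 and 37.9 CPM at 32 h (2.51 ± 0.66, edgeR adjusted p = 0.00152). EYD1, for erythritol dehydrogenase, went from 13.2, 21.2 and 23.1 CPM to 88.2, 126 and 98.4 CPM (2.44 ± 0.81, edgeR adjusted p = 0.00925). EYI2, for an erythrose phosphate isomerase, went from 13.8, 19.0 and 19.2 CPM to 30.1, 47.0 and 58.7 CPM. For all 3 genes the stationary libraries lay above the growth libraries, as they did for 36.3% of all genes tested. The change of EYI2 (1.38 ± 0.62, edgeR adjusted p = 0.0485) did not pass with the replicate number as a block (adjusted p = 0.109). It also did not pass without growth replicate 1, 2 or 3 (adjusted p = 0.126, 0.0815 and 0.0765) or without stationary replicate 2 or 3 (adjusted p = 0.0922 and 0.152). SDR2, a short-chain dehydrogenase gene counted here with mannitol metabolism, did not pass (-0.25 ± 0.18).

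The 2 citrate transport genes moved in opposite directions. CEX1, the plasma membrane citrate exporter of Y. lipolytica, had 6.39, 7.52 and 6.60 CPM in growth phase and 229, 213 and 83.6 CPM at 32 h. The growth libraries were close together, and stationary replicate 3 had the lowest level of its group but was above every growth library. The change was 4.67 ± 0.30 (25.5-fold, edgeR adjusted p = 1.58e-13). CTP1, a mitochondrial citrate carrier, went from 197, 199 and 163 CPM to 53.3, 56.9 and 51.8 CPM (-1.79 ± 0.11, edgeR adjusted p = 2.11e-14), with no overlap.

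Among citrate synthases, CIT2 fell more than CIT1. CIT2, which is listed with the glyoxylate cycle and named for a peroxisomal citrate synthase of Saccharomyces cerevisiae, went from 396, 387 and 323 CPM to 17.5, 17.0 and 10.5 CPM. The change was -4.62 ± 0.27 (edgeR adjusted p = 3.04e-14). CIT1, for the mitochondrial citrate synthase, fell by 0.62 ± 0.13 and ACO1, for aconitase, by 0.89 ± 0.13 on the log2 scale. PYC1, for pyruvate carboxylase, had 1588, 1538 and 730 CPM in growth phase and 1710, 1810 and 1676 CPM at 32 h. Growth replicate 3 stood below the other libraries, and the change of 0.43 ± 0.18 (edgeR adjusted p = 0.0297) became 0.15 without it (adjusted p = 0.327). That call was also lost without stationary replicate 1, 2 or 3 (adjusted p = 0.0701, 0.0986 and 0.0606), and in the block fit of the 6 libraries (adjusted p = 0.11).

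The rises of the malate synthase genes of the glyoxylate cycle rested on 1 library. MLS2 had 20.1, 14 and 23 CPM in growth phase and 18.3, 19.5 and 93.1 CPM at 32 h, and MLS1 had 370, 383 and 367 CPM and then 403, 418 and 715 CPM. Stationary replicate 3 was high for both genes, while stationary replicates 1 and 2 were within or close to the growth range. The changes of 1.20 ± 0.40 for MLS2 and 0.46 ± 0.17 for MLS1 became -0.05 and 0.09 without stationary replicate 3 (edgeR adjusted p = 0.868 and 0.584). MLS2 did not pass without growth replicate 2 either (1.02, adjusted p = 0.0509). In the block fit of the 6 libraries neither passed (adjusted p = 0.179 and 0.12). ICL1, for isocitrate lyase, did not pass (-0.17 ± 0.14), and fell by 0.38 without both replicates 3 (adjusted p = 0.0429).

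**Figure D2:**
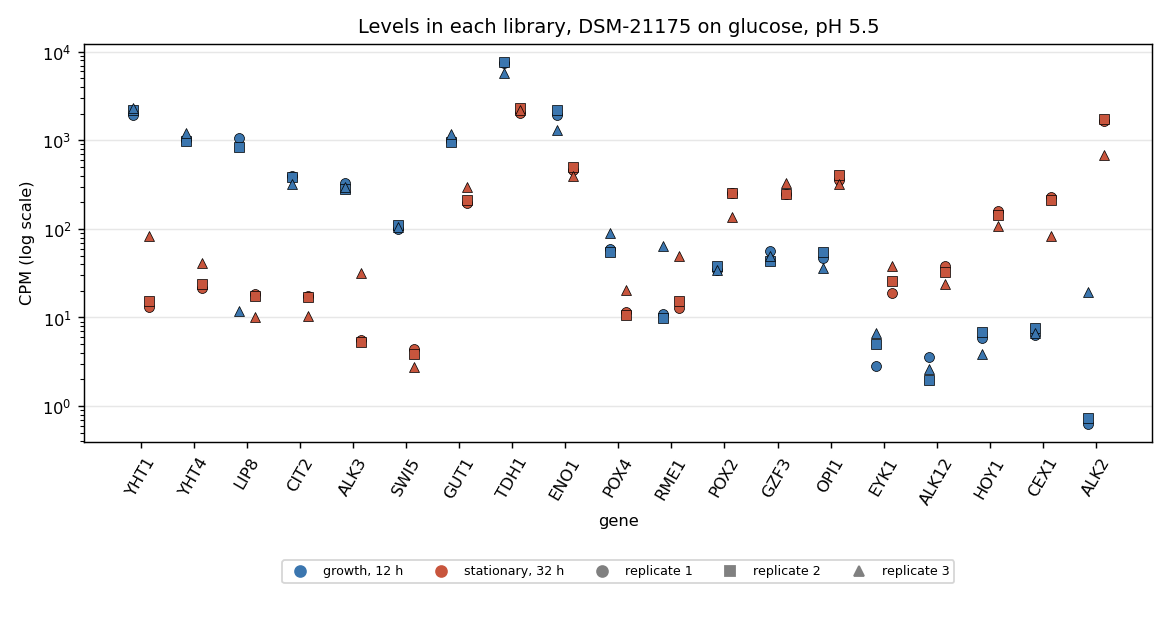
CPM on a log axis for 19 named genes (horizontal axis) in each of the 6 libraries; blue is 12 h, red is 32 h, and the marker shape gives the replicate. YHT1 falls from 1942 to 2324 CPM down to 13.2 to 84.0 CPM, ALK2 and CEX1 rise, and the triangles of replicate 3 lie apart for LIP8, ALK2 and RME1.

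Of 10 genes for fatty acid synthesis, 7 fell and 1 rose, beside 35.3% and 37.1% of all genes tested, with a median of -0.58. ACL1, for a subunit of ATP citrate lyase, which makes cytosolic acetyl-CoA, had 1137, 1162 and 993 CPM in growth phase and 422, 422 and 479 CPM at 32 h (-1.32 ± 0.09, edgeR adjusted p = 2.35e-13). Its partner ACL2 fell by 0.67 ± 0.11 on the log2 scale. The elongase genes ELO2 and ELO1 fell by 1.31 ± 0.11 and 1.08 ± 0.20 (-1.61 for ELO1 without stationary replicate 3), and the oleate desaturase gene FAD2 by 1.10 ± 0.15. ACC1, for acetyl-CoA carboxylase, had 1207, 1254 and 864 CPM and then 631, 680 and 1123 CPM. Its groups overlapped, since growth replicate 3 was low and stationary replicate 3 high, and its change was -0.45 ± 0.15 (edgeR adjusted p = 0.00833). It did not pass without growth replicate 2 or without stationary replicate 1 (adjusted p = 0.0576 and 0.0557), nor in the block fit of the 6 libraries (adjusted p = 0.19). The fatty acid synthase genes FAS1 and FAS2 did not pass (-0.34 ± 0.16 and -0.10 ± 0.17) and showed the same order, with FAS1 at 1745, 1849 and 1326 CPM and then 1087, 1104 and 1707 CPM. Without stationary replicate 3 both fell, by 0.62 and 0.48 (edgeR adjusted p = 0.00122 and 0.00518), and FAS1 also fell without growth replicate 3 (-0.47, adjusted p = 0.0183). Without both replicates 3, 9 genes of the list fell and its median was -0.95. OLE1, for the stearoyl-CoA desaturase, was the member that rose, from 1291, 1488 and 1569 CPM to 1876, 1913 and 2141 CPM (0.45 ± 0.10, edgeR adjusted p = 0.00021).

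Among 9 genes of triacylglycerol synthesis and lipolysis, 4 rose and 1 fell, beside 37.1% and 35.3% of all genes tested. The largest rise was that of TGL3, for a triacylglycerol lipase, which had 23.3, 24.6 and 31.1 CPM in growth phase and 86.2, 81.0 and 71.9 CPM at 32 h (1.60 ± 0.12, edgeR adjusted p = 7.25e-13). TGL4, for the other intracellular lipase of the list, rose by 0.94 ± 0.08. LRO1, for the acyltransferase that uses phospholipid as acyl donor, rose by 0.93 ± 0.08, and DGA2, for a diacylglycerol acyltransferase, rose by 0.52 ± 0.09. Its paralog DGA1 had 132, 131 and 133 CPM and then 115, 113 and 146 CPM, and did not pass (-0.08 ± 0.10), but fell by 0.25 without stationary replicate 3 (adjusted p = 0.0252). PAH1, for phosphatidate phosphatase, fell by 0.32 ± 0.13 with overlapping groups. PAH1 did not pass without growth replicate 1 or 2, or without stationary replicate 1 or 2 (edgeR adjusted p = 0.0763, 0.153, 0.111 and 0.0677), nor in the block fit of the 6 libraries (adjusted p = 0.123).

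The acyl-CoA oxidases, which catalyse the first step of peroxisomal beta-oxidation, did not move together. POX2 rose, with 34.5, 37.9 and 34.7 CPM in growth phase and 257, 254 and 138 CPM at 32 h (2.60 ± 0.21, edgeR adjusted p = 1.68e-11). Stationary replicate 3 was the lowest of its group and still above all growth libraries. POX4 fell, from 60, 54.9 and 90.6 CPM to 11.5, 10.6 and 20.7 CPM (-2.26 ± 0.26, edgeR adjusted p = 1.02e-08). POX1 fell by 2.09 ± 0.25, POX5 by 1.15 ± 0.28 and POX3 by 0.46 ± 0.15 on the log2 scale. POX3 did not pass without growth replicate 1 (-0.36, adjusted p = 0.0549). POX6 (-0.40 ± 0.19) and the genes of later steps, MFE1 for the multifunctional enzyme (-0.21 ± 0.13) and POT1 for thiolase (-0.32 ± 0.20), did not pass. POX6 fell by 0.53 without growth replicate 2 and by 0.61 without stationary replicate 3 (edgeR adjusted p = 0.0221 and 0.00959), and it passed in the block fit of the 6 libraries (adjusted p = 0.0145). Members of the POX and ALK families resemble each other in sequence, and how reads shared between such genes were counted is not given in the sources used here.

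Of 12 ALK genes, 7 rose and 1 fell, beside 37.1% and 35.3% of all genes tested, with a median of 1.22. ALK2 had 0.621, 0.738 and 19.6 CPM in growth phase and 1647, 1739 and 691 CPM at 32 h. Growth replicate 3 was high and stationary replicate 3 was low within their groups, and the groups stayed far apart. The change was 7.63 ± 0.81 (edgeR adjusted p = 7.45e-09), and 10.94 without growth replicate 3. ALK12 went from 3.55, 1.99 and 2.62 CPM to 37.8, 32.6 and 24.1 CPM (3.54 ± 0.18, edgeR adjusted p = 1.12e-16). ALK6, ALK4, ALK11 and ALK9 rose by 1.66 ± 0.14, 1.64 ± 0.12, 1.5 ± 0.25 and 0.95 ± 0.27. The rise of ALK11 was 2.20 without growth replicate 3. The rise of ALK9 was 0.58 without stationary replicate 3 and did not pass (adjusted p = 0.0616). ALK7 had 9.76, 8.04 and 9.67 CPM and then 11.8, 13.5 and 74.5 CPM, and its rise of 1.86 ± 0.42 (edgeR adjusted p = 0.000311) was 0.43 without stationary replicate 3 (adjusted p = 0.0443). In the block fit of the 6 libraries ALK7 did not pass (adjusted p = 0.103). ALK3 was the member that fell, from 333, 282 and 297 CPM to 5.54, 5.34 and 32.2 CPM (-4.40 ± 0.47, edgeR adjusted p = 7.93e-09), and by -5.85 without stationary replicate 3. ALK1, the cytochrome best known for alkane hydroxylation, had 161, 177 and 308 CPM and then 231, 226 and 106 CPM and did not pass (-0.19 ± 0.54). Its level was higher at 32 h in replicates 1 and 2 and lower in replicate 3, so the negative sign rested on replicate 3. ALK5, ALK8 and ALK10 did not pass either, and the last 2 had at most 16 reads in any of the 6 libraries.

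Both secreted lipase genes of the list fell, beside 35.3% of all genes tested. LIP2, for the main extracellular lipase, had 95.2, 94.5 and 18.3 CPM in growth phase and 14.8, 15.9 and 10 CPM at 32 h (-2.36 ± 0.41, edgeR adjusted p = 1.34e-05). LIP8 had 1067, 850 and 11.7 CPM in growth phase and 18.6, 17.7 and 10.2 CPM at 32 h. Growth replicate 3 thus lay with the stationary libraries for LIP8 and close to them for LIP2, whose change was -2.81 without it. The fitted change of LIP8 was -5.37 ± 0.77 (edgeR adjusted p = 9.31e-07) and -5.95 without growth replicate 3, and it did not pass in the block fit of the 6 libraries (-4.34, adjusted p = 0.0815).

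The 4 genes of nitrogen assimilation and purine salvage did not pass. GLN1, for glutamine synthetase, had 1972, 1719 and 1515 CPM in growth phase and 2605, 2449 and 1365 CPM at 32 h (0.30 ± 0.19, edgeR adjusted p = 0.165). Stationary replicate 3 lay below all growth libraries, and without it GLN1 rose by 0.50 (adjusted p = 0.0145). GDH2 (glutamate dehydrogenase), GLT1 (glutamate synthase) and AMPD1 (AMP deaminase) had changes of -0.23 ± 0.13, 0.12 ± 0.15 and 0.21 ± 0.12, and overlapping groups. GDH2 fell by 0.49 without stationary replicate 3 and by 0.31 without growth replicate 1 (edgeR adjusted p = 0.00094 and 0.0491), and it passed in the block fit of the 6 libraries (adjusted p = 0.0375). GLT1 rose by 0.41 without growth replicate 1 (adjusted p = 0.0104), and had -0.11 without growth replicate 3.

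**Figure D3:**
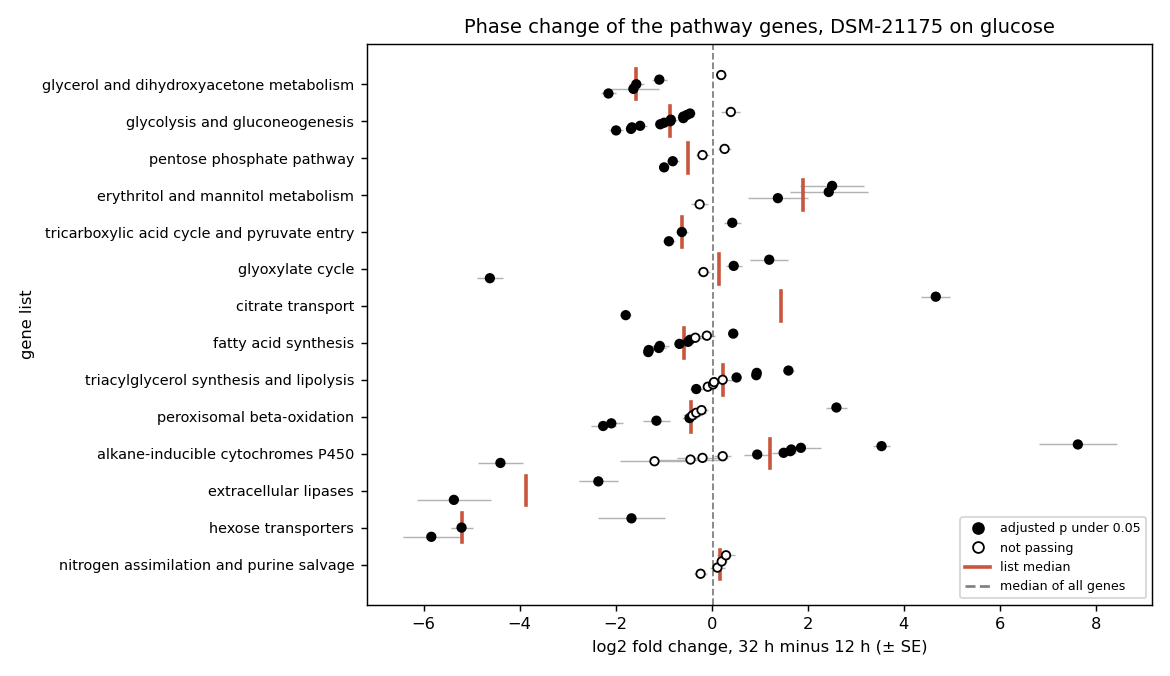
Log2 fold change of 32 h over 12 h with its SE (horizontal axis) for the 83 genes of the 14 pathway lists (vertical axis). Filled points passed an adjusted p under 0.05, red bars are list medians and the dashed line is the median of all genes. Hexose transporters, lipases and glycolysis lie on the lower side, with medians of -5.21, -3.87 and -0.86, and the ALK genes mostly on the higher side.

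Regulators were described through the 71 genes that carry a symbol in the authors' table of log2 values. Their symbols come mostly from S. cerevisiae, so the roles given here are from that yeast unless another is named. How these genes came to carry a symbol was not examined, so their counts are no independent evidence of a direction. In all, 33 rose, 23 fell and 15 did not pass, and the median was 0.30. Over all genes tested, 37.1% rose and 35.3% fell.

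SWI5, an activator of genes used as cells leave mitosis, had 101, 111 and 106 CPM in growth phase and 4.38, 3.83 and 2.74 CPM at 32 h (-4.87 ± 0.17, edgeR adjusted p = 3.74e-20). YOX1, a homeodomain repressor of cell cycle genes, went from 76.4, 89.5 and 96.2 CPM to 10.3, 10.8 and 5.90 CPM (-3.28 ± 0.19, edgeR adjusted p = 3.66e-15). Neither gene had overlapping groups. MBP1, the DNA-binding part of the factor that acts before DNA replication, fell by 0.69 ± 0.13, whereas MCM1, a cofactor of several cell cycle regulators, rose by 0.56 ± 0.08.

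HOY1, a homeodomain gene of Y. lipolytica needed for hyphae, had 5.86, 6.79 and 3.89 CPM in growth phase and 159, 142 and 107 CPM at 32 h (4.61 ± 0.17, edgeR adjusted p = 1.57e-19). It had the largest rise among the 71 symbols. MHY1, another Y. lipolytica gene for hyphal growth, went the other way, from 36.1, 35.6 and 32.4 CPM to 14, 14.6 and 5.54 CPM (-1.61 ± 0.37). TUP1, a general corepressor, fell by 0.53 ± 0.09. RIM101, the regulator of the response to ambient pH, had 169, 198 and 169 CPM and then 295, 304 and 350 CPM (0.82 ± 0.12, edgeR adjusted p = 7.01e-07). Its level in the 32 h cultures of this strain at pH 3.5 on glucose was 112 to 120 CPM.

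OPI1 rose from 46.8, 54.3 and 36.1 CPM to 359, 409 and 324 CPM (2.99 ± 0.25, edgeR adjusted p = 2.73e-11). It is named for a repressor of phospholipid synthesis genes of S. cerevisiae, and its role in Y. lipolytica was not examined. YAS1, an activator of the alkane response in Y. lipolytica, rose by 0.97 ± 0.25. RPN4, the activator of proteasome genes, went from 261, 241 and 210 CPM to 1233, 1235 and 1127 CPM (2.34 ± 0.12, edgeR adjusted p = 9.84e-17). HAC1, of the unfolded protein response, rose by 1.19 ± 0.10, YAP3, of the AP-1 family, by 1.21 ± 0.08 and HSF1, the heat shock factor, by 0.63 ± 0.12. MSN4, a general stress regulator, fell by 1.73 ± 0.19, with 48.1, 61.4 and 130 CPM in growth phase and 22.3 to 25.5 CPM at 32 h. Growth replicate 3 was the highest, and the change of MSN4 without it was -1.18.

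Of 5 GATA factor genes, a family that includes nitrogen regulators, 4 rose, beside 37.1% of all genes tested and 33 of the 71 symbols. GZF3 had 56.7, 43.4 and 49.8 CPM in growth phase and 248, 247 and 333 CPM at 32 h (2.47 ± 0.13, edgeR adjusted p = 7.99e-16). GZF1 had 27.1, 11.9 and 3.71 CPM and then 94.4, 95.5 and 86.3 CPM (2.69 ± 0.31, edgeR adjusted p = 1.85e-08). The growth libraries of GZF1 were spread widely and all lay below the stationary ones, and the change was 3.52 without growth replicate 1. GZF5 and GZF2 rose by 1.23 ± 0.12 and 0.67 ± 0.16, and GZF4 fell by 0.45 ± 0.15 with overlapping groups. GZF4 did not pass without growth replicate 2 (-0.29, adjusted p = 0.0979) or in the block fit of the 6 libraries (adjusted p = 0.0531). PTR3, a part of the amino acid sensor, rose by 1.76 ± 0.12, and NPR2, a part of the complex that restrains TOR signalling, rose by 1.01 ± 0.09. DAL81 and PUT3, activators of genes for nitrogen source use, rose by 0.88 ± 0.12 and 0.63 ± 0.12. Among amino acid pathway regulators, CHA4, ARG81 and LEU3 fell by 1.13 ± 0.17, 0.92 ± 0.08 and 0.42 ± 0.12. ARO80 fell by 0.37 ± 0.16 (edgeR adjusted p = 0.037), which did not pass without growth replicate 1 or without stationary replicate 1 or 2 (adjusted p = 0.136, 0.0632 and 0.087). GCN4, the general activator of amino acid synthesis genes, did not pass (-0.05 ± 0.11).

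SFP1, a regulator of ribosome synthesis, rose by 1.32 ± 0.14, REI1, a maturation factor of the large ribosomal subunit, by 1.26 ± 0.13, and JJJ1, a cochaperone of the same pathway, by 0.60 ± 0.12.

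Many of the largest changes fell on genes with no name in the files. Taking genes with a mean log2 CPM of 3 or more and no overlap between groups, YALI0B13794g led the rises: it had 2 to 3 reads per library in growth phase and 16831 to 27332 reads at 32 h. YALI0F25993g had 0.444, 0.664 and 1.36 CPM and then 1919, 1840 and 2250 CPM (11.25 ± 0.30, edgeR adjusted p = 1.99e-22). YALI0B16522g led the falls, from 527, 640 and 523 CPM to 0.205, 0.639 and 1.19 CPM (-9.64 ± 0.33, edgeR adjusted p = 1.29e-19), and by -10.34 without stationary replicate 3. This gene had 3 to 20 reads per library at 32 h. YALI0B18194g fell from 218, 394 and 637 CPM to 0.274, 0.639 and 1.55 CPM (-8.94 ± 1.46, edgeR adjusted p = 6.45e-06), and by -9.81 without stationary replicate 3. Its reads per library at 32 h were 4 to 26. For all 4 genes the groups were separated by more than 100-fold in CPM. These genes were picked for the largest changes without overlap, so their separation is no further evidence of a change. In total, 4 genes had 0 reads in all 3 growth libraries and at least 10 reads in each stationary library, and none showed the reverse.

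Of the 227 genes tested with noncoding locus tags, 25 rose and 29 fell, beside 37.1% and 35.3% of all genes tested, with a median of 0. The noncoding genes include 164 tRNA genes (15 rose, 22 fell) and 41 rRNA genes (4 rose, 4 fell) by the biotypes of the reference table. Of 15 mitochondrial genes, 8 fell and none rose, beside the same 35.3% and 37.1% of all genes, with a median of -2.05. Mitochondrial genes took 0.0314, 0.0530 and 0.00586% of reads in growth replicates 1 to 3 and 0.00277, 0.0193 and 0.00193% at 32 h, so the groups overlapped. The libraries were made from poly(A) RNA, so these classes were captured only in small part.

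The difference between replicate 3 and the other replicates took a similar form in both phases. Of the genes at least 2-fold apart, 131 were shared, which is 37.4% of those in growth replicate 3 and 30.8% of those in stationary replicate 3. Of these, 122 deviated in the same direction, 67 above and 55 below. RME1, a repressor of entry into meiosis, had 10.9, 9.96 and 63.4 CPM in growth phase and 12.8, 15.2 and 49.8 CPM at 32 h. YHP1, a homeodomain repressor related to YOX1, had 2.22, 3.69 and 20.7 CPM and then 1.98, 2.21 and 30.4 CPM. Both genes were high in replicate 3 of either phase. Neither passed the phase test (-0.11 ± 0.47 and 0.39 ± 0.74), but each passed when a single replicate 3 was left out. RME1 had 1.31 without growth replicate 3 and -1.05 without stationary replicate 3 (adjusted p = 0.00292 and 0.0485), and YHP1 had 1.96 and -2.11 (adjusted p = 0.0331 and 0.0077).

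Further genes deviated in one phase, in opposite directions, or on the same side in both. On the same side lay MGF1-like, with log2 gaps of -1.28 in growth replicate 3 and -3.73 in stationary replicate 3. AZF1 did so as well, with gaps of 1.6 and 0.99. In growth replicate 3, ALK2 lay above and LIP8 below the nearer replicate, with log2 gaps of 4.48 and -6.17. In stationary replicate 3, YHT1, ALK3 and ALK7 had gaps of 2.44, 2.51 and 2.45, and CEX1 and MHY1 had gaps of -1.35 and -1.31. NRG1, a glucose repressor, was high in growth replicate 3 and low in stationary replicate 3, with gaps of 1.54 and -1.35. Its change of -0.56 ± 0.33 did not pass (edgeR adjusted p = 0.132). It passed without growth replicate 1 (-0.86, adjusted p = 0.0234) or growth replicate 2 (-0.82, adjusted p = 0.0392), and was 0.51 without both replicates 3 (adjusted p = 0.0404). AZF1, a zinc finger factor, had 1.33, 0.885 and 4.34 CPM in growth phase and 0.342, 0.523 and 1.19 CPM at 32 h. Its change of -1.59 (edgeR adjusted p = 0.0123) was -0.64 without growth replicate 3 (adjusted p = 0.337) and -2.29 without stationary replicate 3. MGF1-like, named as in the authors' table, had 17.6, 18.0 and 7.14 CPM in growth phase and 1.85, 4.36 and 0 CPM at 32 h, with 0 to 75 reads per library at 32 h. It fell by 2.77 ± 0.58 (edgeR adjusted p = 0.000119), with -4.04 without stationary replicate 2.

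**Figure D4:**
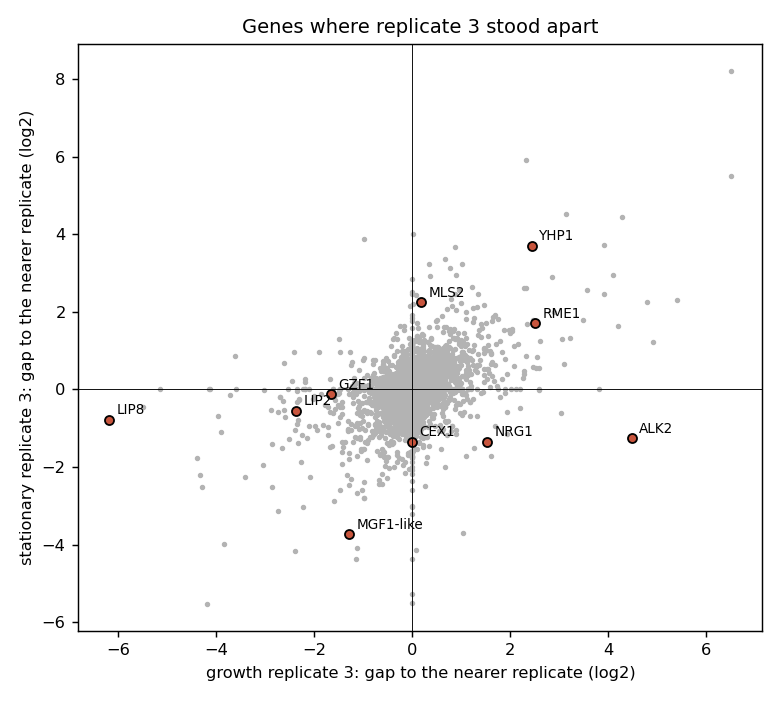
Gap of replicate 3 to the nearer of the other replicates, as log2 CPM, in growth phase (horizontal axis) and at 32 h (vertical axis); each grey point is a gene and red points are named genes. RME1 and YHP1 lie above 0 on both axes, LIP8 lies at -6.17 on the growth axis, and ALK2 lies at 4.48 and -1.25.

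The phase change was next compared with that of DSM-3286 on glucose, sampled at the same hours and pH with 3 libraries at 12 h and 2 at 32 h. The difference between the changes was tested in the same model, and it passed for 2744 genes (42.0%), 1398 of them with a higher change in DSM-21175 (21.4%) and 1346 with a lower one (20.6%). DSM-3286 itself had 4700 changed genes (71.9%), 2404 higher (36.8%) and 2296 lower (35.1%). The strains shared the direction for 3473 genes that changed in both, and 276 changed in opposite directions. A further 979 genes changed in DSM-21175 but did not pass in DSM-3286, and the difference passed for 552 of them.

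Over the pathway lists the change of DSM-21175 was lower for 47 of 83 genes and higher for 7, beside 20.6% and 21.4% of all genes tested. In DSM-3286, 41 of the 83 rose and 20 fell. For glycolysis and gluconeogenesis the difference was negative and passed for 9 of 13 genes, and in DSM-3286 6 of the 13 rose and 4 fell. TDH1 had 8420 to 8687 CPM at 12 h and 10308 to 10394 CPM at 32 h in DSM-3286, a rise of 0.28, against the fall of 1.68 in DSM-21175 (difference -1.96 ± 0.13, edgeR adjusted p = 4.5e-12). PGI1 likewise rose by 0.63 in DSM-3286 (difference -2.11 ± 0.21). YHT1 and YHT4 fell in both strains and by less in DSM-3286, with changes of -1.42 and -3.16. YHT1 there had 1222 to 1396 CPM left at 32 h, and the differences were -4.42 ± 0.74 and -2.05 ± 0.29 (edgeR adjusted p = 4.2e-05 and 3e-06). Without stationary replicate 3 of DSM-21175 the difference for YHT1 was -5.88.

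Fatty acid synthesis and beta-oxidation also differed between the strains. The difference passed as lower in DSM-21175 for 8 of 10 fatty acid synthesis genes and 6 of 8 beta-oxidation genes, and higher for none. Over all genes tested, it was lower for 20.6% and higher for 21.4%. In DSM-3286, FAS1 went from between 3740 and 3916 CPM to between 9113 and 9158 CPM, a rise of 1.26 (difference -1.60 ± 0.24, edgeR adjusted p = 7.4e-06). MAE1, for malic enzyme, rose by 1.49 there and fell by 0.49 in DSM-21175 (difference -1.98 ± 0.16). POX5 rose by 2.87 and POX1 by 1.60 in DSM-3286, against falls in DSM-21175 (differences -4.02 ± 0.42 and -3.68 ± 0.35). POX2 rose by 2.57 in DSM-3286, and its difference of 0.03 ± 0.30 did not pass.

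CEX1 rose in both strains and far more in DSM-3286. It had 8.34 to 10.6 CPM at 12 h and 7268 to 7284 CPM at 32 h there, a change of 9.62, so the difference was -4.94 ± 0.41 (edgeR adjusted p = 5.3e-10). CIT2, which fell by 4.62 in DSM-21175, changed by -0.58 in DSM-3286 (difference -4.04 ± 0.36, edgeR adjusted p = 2.1e-09). ALK7 rose by 4.97 in DSM-3286, to between 4237 and 5061 CPM (difference -3.11 ± 0.59, and -4.56 without stationary replicate 3 of DSM-21175). ALK2 and HOY1 had the larger rise in DSM-21175, with differences of 3.74 ± 0.99 and 1.87 ± 0.22 (edgeR adjusted p = 0.0039 and 1.9e-07). The difference for ALK2 was 7.05 without growth replicate 3 of DSM-21175, and did not pass in a fit of the compared libraries alone (adjusted p = 0.0913). MSN4 rose by 1.29 in DSM-3286 and fell in DSM-21175 (difference -3.02 ± 0.28). EYK1 had 24.2 to 37.5 CPM at 12 h and 31.1 to 33.6 CPM at 32 h in DSM-3286, and its difference of 2.37 ± 0.93 (edgeR adjusted p = 0.043) was lost without growth replicate 1 or 2 or stationary replicate 2 or 3 of DSM-21175 (adjusted p = 0.0968, 0.0678, 0.0627 and 0.105). It was also lost without growth replicate 1 or 2 or either stationary replicate of DSM-3286, where the adjusted p was 0.0871, 0.0526, 0.1 and 0.122.

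**Figure D5:**
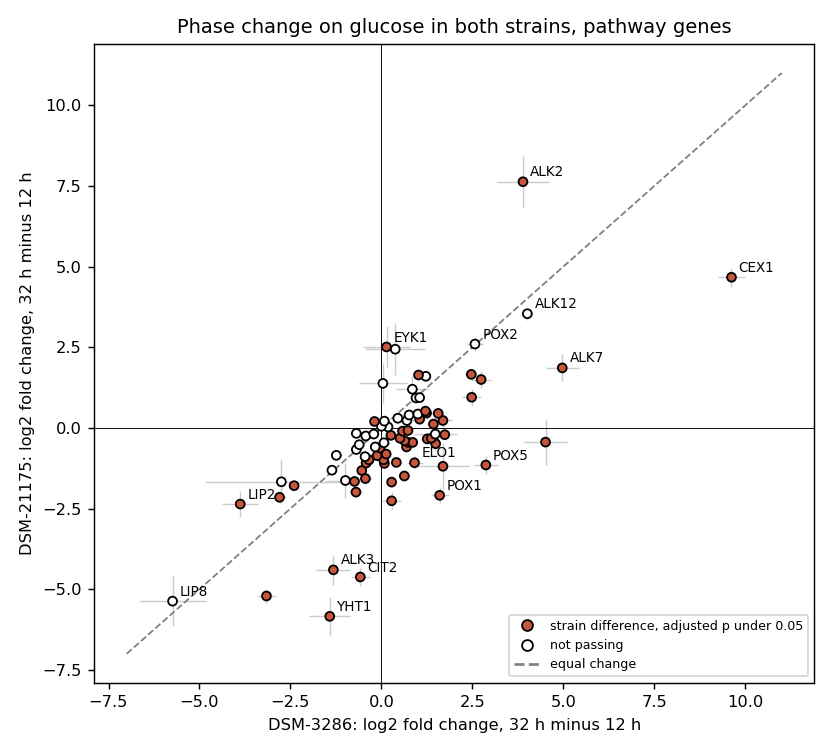
Log2 fold change of 32 h over 12 h on glucose in DSM-3286 (horizontal axis) and DSM-21175 (vertical axis), with SE, for the 83 pathway genes. Red points passed the test of the difference between strains, and the dashed line marks equal change. More red points lie below the line (47) than above it (7), CEX1 lies at 9.62 and 4.67, and POX1 and POX5 rose in DSM-3286 and fell in DSM-21175.

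The same strain on glycerol gave the second comparison, with growth phase sampled at 8 h on glycerol and 12 h on glucose, so that hour and carbon source cannot be told apart in it. On glycerol 4995 genes changed (76.4%), 2437 higher (37.3%) and 2558 lower (39.1%). The difference between the changes passed for 1966 genes (30.1%), 1133 with a higher change on glucose (17.3%) and 833 with a lower one (12.7%). Both carbon sources shared the direction for 4015 genes, and 153 changed in opposite directions. Among the 83 pathway genes the change was higher on glucose for 9 and lower for 21.

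The falls in hexose transport and glycolysis were also seen on glycerol. YHT1 and YHT4 fell by 6.81 and 5.07 on glycerol, and their differences of 0.97 ± 0.71 and -0.15 ± 0.29 did not pass. All 13 genes of glycolysis and gluconeogenesis fell on glycerol, beside 39.1% of all genes tested. Against 30.1% over all genes, the difference passed for 4 of the 13. PCK1 stood out among them: it fell by 2.11 on glycerol, from 109 to 152 CPM down to 23.8 to 42.0 CPM, and the difference was 2.51 ± 0.29 (edgeR adjusted p = 3e-07). CEX1 rose on both carbon sources (5.16 on glycerol, difference -0.49 ± 0.39, edgeR adjusted p = 0.37).

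The erythritol genes rose more on glycerol. EYK1, EYD1 and EYI2 changed by 6.80, 6.43 and 6.82 there, with differences of -4.29 ± 1.09, -3.98 ± 1.22 and -5.44 ± 1.03 (edgeR adjusted p = 0.004, 0.015 and 0.00026). The 32 h libraries on glycerol were widely spread for these genes, with EYK1 at 15.4 to 227 CPM. Without growth replicate 3 on glycerol the differences were -5.27, -6.50 and -8.07, and without growth replicate 2 on glycerol -3.63, -3.33 and -4.75. In a fit of the compared libraries alone, EYK1 and EYD1 did not pass (adjusted p = 0.067 and 0.135). Without both replicates 3 of the glucose groups, EYD1 did not pass (adjusted p = 0.0511). LIP8 was at 9.79 to 19.8 CPM in growth phase on glycerol, the level of growth replicate 3 on glucose, and its difference was -5.24 ± 1.01 (edgeR adjusted p = 0.0003). DAK2 rose by 2.52 on glycerol (difference -4.14 ± 0.86, and -5.28 without growth replicate 3 on glycerol). ALK7 had a change of 0.01 on glycerol, and its difference of 1.86 ± 0.60 (edgeR adjusted p = 0.02) was 0.45 without stationary replicate 3 on glucose (adjusted p = 0.203). It did not pass without growth replicate 3 on glycerol either (1.70, adjusted p = 0.0525).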

How the data were processed

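RNA was sequenced from poly(A)-selected, strand-specific libraries of bioreactor cells, per the labels' protocols. The authors deposited raw counts per gene and a log2 table. Tools named in the submitters' processing notes are featureCounts 1.5.1, BWA 0.7.12-r1039 and edgeR, with no role for any. Neither the genome build nor whether counting used strand is given in the sources used here. Overlapping genes and near-identical paralogs are therefore uncertain. The deposited log2 values matched log2(FPKM + 1) from the deposited counts and effective lengths within 0.02 for 99.9% of values. All columns were assigned to samples by name.

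Of 7132 genes, filterByExpr over the 12 groups kept 6537. In R 4.3.3, edgeR 4.0.16 (TMM factors 0.865 to 1.176, robust quasi-likelihood fit, 1 coefficient per group, 23 residual degrees of freedom) was fitted to all 35 libraries. Differences of phase changes were contrasts in the same fit. The SE is the size of the change divided by the square root of F. Alternatives were RLE scaling, no filter, DESeq2 1.42.0, limma 3.58.1 on the deposited log2 values, the compared libraries alone, a replicate block, a 2-fold threshold, leaving out each replicate, and leaving out both replicates 3. A gene with 2 or 3 reads in a library has a wide counting error, and for such genes reads are given.

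Replicate numbers come from the labels. Deviations from the group means of same-numbered libraries correlated at 0.353, 0.344 and 0.446 over genes, all over 0.1, so the numbers were taken to pair the growth and stationary libraries of DSM-21175 on glucose, although replicates 1 and 2 also correlated across numbers (0.299 and 0.239). The main fit did not use this pairing, which entered the block fits alone. The block fit of all libraries also paired the other groups by number. There, same-numbered libraries correlated at 0.063 and 0.068 for DSM-3286 on glucose, and at 0.075, -0.083 and -0.138 for DSM-21175 on glycerol. No pair of libraries agreed within sampling noise.

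The members and lists were chosen with earlier results of these data known. The 83 pathway genes were matched to locus tags from memory of published names, and IDs were found for the 71 symbols of the log2 table by matching values. Genes were named by rule: up to 4 changed members of each list, up to 12 named and 3 unnamed genes per direction, up to 6 per sign of each difference, up to 5 per direction for each replicate 3, and GUT1, GUT2, CEX1, EYK1, LIP2, POX2, GLN1, SDR2 and RIM101. Other list members and symbols are given as further examples, chosen after their values were seen. The reference table matched 6682 IDs and gave biotypes but no names. Its coordinates were used to place the genes in order. Lists by product description were not analysed here. Counts were also simulated for 6537 genes, of which 100 changed 2-fold and 100 changed 4-fold. For the phase change 88 and 95 of these were recovered, with 3 false calls. For the strain difference 67 and 91 were recovered, with 2 false calls. For the carbon source difference 69 and 91 were recovered, with 1 false call. Recovery and false calls with as many changed genes as were called in the data (72.3%) were not tested.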

Additional observations from a re-analysis of the deposited data

Results flagged for a closer look

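For 12 genes the phase change on glucose differed between the strains by the edgeR test of the difference itself (log2, DSM-21175 minus DSM-3286, adjusted p under 0.05), up to 6 of each sign with the largest differences among named genes with a mean log2 CPM of 3 or more over the libraries compared. The change was higher in DSM-21175 for ALK2 (3.74), EYK1 (2.37), HOY1 (1.87), GZF1 (1.53), LIP2 (1.53) and OTU1 (0.96), a gene named for a deubiquitylating enzyme of S. cerevisiae. It was lower for CEX1 (-4.94), YHT1 (-4.42), CIT2 (-4.04), POX5 (-4.02), POX1 (-3.68) and ALK7 (-3.11). Without growth replicate 3 of DSM-21175 the difference was 7.05 for ALK2, without its growth replicate 1 it was 2.36 for GZF1, and without its stationary replicate 3 it was -5.88 for YHT1 and -4.56 for ALK7. The difference for LIP2 was lost without either growth replicate 1, 2 or 3 of DSM-3286 (adjusted p = 0.0631, 0.0591 and 0.0508), without either of its stationary replicates (adjusted p = 0.123 and 0.0997), and without stationary replicate 1 or 2 of DSM-21175 (adjusted p = 0.0812 and 0.0962).

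For 12 genes the phase change of DSM-21175 differed between carbon sources by the same test and under the same limit on level (log2, glucose minus glycerol). It was higher on glucose for PCK1 (2.51), ALK7 (1.86), ARO80 (1.21), TFC2 (1.09), BUD20 (0.99) and ALK4 (0.98), and lower for EYI2 (-5.44), LIP8 (-5.24), EYK1 (-4.29), EYD1 (-3.98), ALK3 (-2.15) and GZF1 (-1.99). The difference for ALK3 did not pass without stationary replicate 2 on glycerol (-1.91, adjusted p = 0.0573), and was -3.57 without stationary replicate 3 on glucose. For GZF1 it was -1.16 without growth replicate 1 on glucose. DAK2 (-4.14) lay under the limit on level.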

How the results depend on the processing

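For the phase change, RLE scaling, no filter, DESeq2, limma, the compared libraries alone, the block fits, each left-out library and both replicates 3 left out shared 88.7 to 99.8% of the calls. Under a 2-fold threshold, 854 genes rose and 737 fell; for the strain difference 110 were higher and 253 lower, and for the carbon source difference 54 and 87. For that difference the compared libraries alone gave 482 lower, and 508 with the replicate block. These 2 fits shared 63.2 and 63.1% of the calls of the carbon source difference. Of the strain difference calls, they shared 80.6 and 75.3%. With the replicate number as a block, 2381 genes rose and 2272 fell, and the block, in this fit or in that of the 6 libraries, ended the phase change calls of YHT2, EYI2, MLS1, MLS2, PYC1, ALK7, LIP8, ACC1, PFK1, PAH1 and GZF4 and added those of POX6 and GDH2.

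Signs changed for the genes below. By its CPM, ALK1 also depended on replicate 3: it was higher at 32 h in replicates 1 and 2 and lower in replicate 3. With 1 library left out at a time, MLS2 ranged from -0.05 (without stationary replicate 3) to 1.53, and PCK1 had -0.02 without both replicates 3. RME1 had 0.15 under limma, 0.06 in the replicate block, 0.12 in the block with the compared libraries alone, 0.12 to 1.31 where it turned with 1 library left out, and 0.39 without both replicates 3; over all single libraries left out its range was -1.05 to 1.31. YHP1 had -0.04 under limma, -0.03 in the block with the compared libraries alone, -0.06 without growth replicate 1, -2.11 without stationary replicate 3 (up to 1.96 without growth replicate 3) and -0.54 without both replicates 3. NRG1 ranged from -0.86 to 0.21 with 1 library left out, turning without growth replicate 3, and had 0.51 without both. FAS2 ranged from -0.48 to 0.04 with 1 library left out (0.00 without growth replicate 2), and GLT1 from -0.11 to 0.41, with -0.07 without both replicates 3. The libraries left out show the part of replicate 3; for the other settings the cause was not tested. With 3 libraries per group, genes with a few reads per library, such as YHT2, limit what can be called.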

Other observations

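Genes that rose strongly were often neighbours. Gene order was taken from the reference table, which need not be of the build the counts were made on, for the 6027 genes with a place in it. Of the 457 placed genes that rose at least 4-fold, 124 (27.1%) lay beside another such gene, while 14.4% of all placed genes lay beside a gene of that kind. For genes that fell at least 4-fold the share was 15.9%, against 9.57% of all placed genes. The same share was 13.4% against 4.10% for rises of at least 16-fold, and 0 against 2.19% for falls of that size. These shares are a description without a test.

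There were 4 runs of 3 or 4 adjacent genes that each rose by at least 3 on the log2 scale, with changes of 3.13 to 8.44. The 1 run of falling genes had 3 members with YOX1 in the middle, which fell by 3.28 to 7.65 on the log2 scale. YALI0B13794g lies beside ALK4 in the reference order.

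On the per-length scale, the gene with the highest mean FPKM was the same in both phases, at 36015 in growth phase and 34058 at 32 h, with a log2 fold change of -0.08.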
